A study of Sus scrofa with 6 samples.

Results

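Transcripts of the mitochondrial respiratory chain and the ATP synthase were examined in preovulatory follicles of Large White and Chinese Erhualian sows. The probe sets were taken by their gene symbols, which had to name a subunit of complex I (NDUFA, NDUFB, NDUFC, NDUFS or NDUFV), complex II (SDHA to SDHD), complex III (UQCR or CYC1), cytochrome c (CYCS), complex IV (COX4 to COX8) or complex V (ATP5). The rule found 75 probe sets of 60 genes among 10069 probe sets that carry exactly 1 symbol. A signal that exceeded 50 on 3 or more arrays was found for 72 of them, still from 60 genes of the 6322 with a tested probe set, and these are the members. Complex I held 37 probe sets of 31 genes, complex II 6 of 4 genes, complex III 2 of 2 genes, complex IV 9 of 8 genes and complex V 15 of 13 genes. Cytochrome c had 1 probe set, and 2 probe sets belonged to ATP5S, a factor associated with the ATP synthase that is not counted among its subunits. NDUFA4 was placed in complex IV, where its protein is found, in spite of its symbol. The 3 probe sets that did not reach the signal limit were further probe sets of NDUFS6 (34.0 to 55.1 over the sows), ATP5J (7.0 to 11.3) and ATP5I (17.0 to 25.7). Just inside the limit lay the dimmer probe set of COX7C, with 41.2 to 70.9, above 50 in Large White 3 and the 3 Chinese Erhualian sows. Among the tested probe sets with 1 symbol, none carried the symbol of the 13 mitochondrially encoded subunits, which were searched without a prefix, as in ND1 or CYTB.

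Each of the 6 arrays held labelled RNA (5 µg of total RNA before labelling) from the ovarian follicles of 1 multiparous sow, 3 Large White and 3 Chinese Erhualian (called Chinese Taihu in the paper, after the wider group of breeds). All 6 sows had received 1000 IU of PMSG, a gonadotropin that makes follicles grow. They received 500 IU of hCG 80 h later, which acts through the LH receptor and starts ovulation, and were killed 30 to 38 h after hCG. The Chinese Erhualian sows came from 1 company and the Large White sows from 1 university farm, so breed and farm cannot be told apart. The deposited value is a normalized signal intensity on a linear scale, brought to a like level on each array, so that a change in the total RNA of a follicle cannot be seen in it. Sows are named by breed and label number, and 6 signals in a row follow the order Large White 1, 2 and 3, then Chinese Erhualian 1, 2 and 3. Signals of different probe sets cannot be compared with each other, and an array of follicle tissue does not tell fewer cells of a type from less RNA per cell.

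The inner mitochondrial membrane carries the respiratory chain. Complex I takes electrons from NADH and complex II from succinate, complex III passes them on to cytochrome c, and complex IV hands them to oxygen. Complexes I, III and IV pump protons, and complex V lets the protons flow back and makes ATP. After the LH surge, granulosa and theca cells turn into luteal cells that are rich in mitochondria, and the first step of steroid synthesis takes place in the same membrane.

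The array of Chinese Erhualian 1 stood apart. Its log2 signals over the 19196 tested probe sets correlated with those of the other arrays at r = 0.834 to 0.887, against 0.907 to 0.967 among the other 5 arrays. The 13 probe sets of surface epithelium and oviduct markers (9 of 15 listed genes) summed to 54040 there, to 2073, 2342 and 9762 in the Large White sows and to 2301 and 2733 in Chinese Erhualian 2 and 3. Granulosa cell markers (14 probe sets of 9 of 10 genes) summed to 2208 on that array against 12260 to 23600 on the other 5, and INHA, the inhibin alpha subunit, read 446 there against 6510 to 10684. The list did not move as a whole, since 8 of its 14 probe sets were lowest and 2 highest on that array, among them INHBA, an activin and inhibin beta subunit (899 against 233 to 387), and FOXL2 was level (98.6 against 94.9 to 116). Theca cell markers (11 probe sets of 7 of 8 genes) summed to 997 there against 8298 to 61340, with the lowest signal on that array in 11 of 11. Some results that rest on that sow are given with and without it, and others only with it.

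The respiratory chain and ATP synthase transcripts differed between sows together, and the order of the sows did not follow the breeds. For each probe set the deviation is the log2 signal minus the median of the 6 sows. The median deviation over the 72 probe sets was 0.39, 0.01 and -0.04 in Large White 1, 2 and 3 and -0.14, 0.37 and -0.35 in Chinese Erhualian 1, 2 and 3. Thus 1 sow of each breed stood high, Large White 1 and Chinese Erhualian 2, and Chinese Erhualian 3 stood lowest. These sows were picked out after their values were seen, and what follows about them is a description. Large White 1 and Chinese Erhualian 2 held the 2 highest signals in 55 of the 72 probe sets, and in 15.6% of all tested probe sets. The members had a median signal of 2188.5, against 269 over all tested probe sets, and shares over all tested probe sets were not matched for signal. Each probe set of GAPDH, a glycolytic enzyme outside the list, also had these 2 sows on top. The highest signal lay on Chinese Erhualian 2 in 34 probe sets and on Large White 1 in 29, which were the highest arrays in 15.6% and 19.3% of all tested probe sets. Chinese Erhualian 3 held the lowest signal in 47 of the 72, against 16.6% of all tested probe sets. Chinese Erhualian 1 held the highest signal in 7 and the lowest in 14, against 23.5% and 23.1% of all tested probe sets. Over the 5 sows other than Chinese Erhualian 1, the 2 highest signals lay on the same sows in 56 of 72 probe sets (20.4% of all tested) and the lowest on Chinese Erhualian 3 in 55 (23.2% of all tested). The sow medians kept this order of high and low sows under quantile normalization (0.38, -0.06, 0.00, -0.12, 0.33 and -0.28) and under median scaling (0.50, 0.01, -0.06, -0.15, 0.44 and -0.30).

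**Figure D1:**
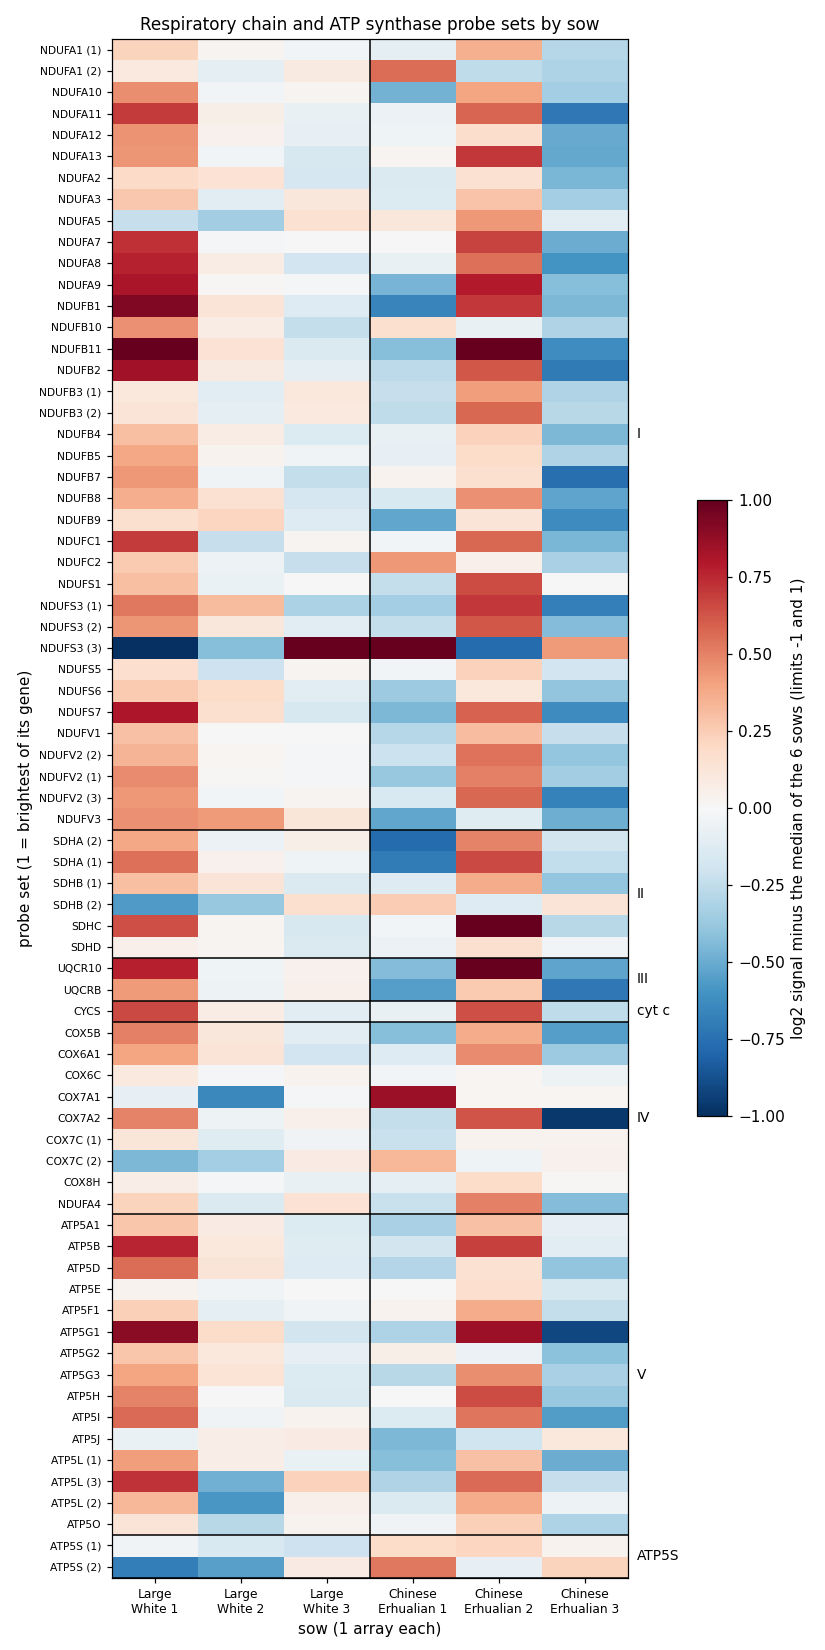
Heat map of the 72 probe sets (rows, by complex, with 1 marking the brightest probe set of a gene) on the 6 arrays (columns). Colour is the log2 signal minus the median of the 6 sows, with the scale ending at -1 and 1. The columns of Large White 1 and Chinese Erhualian 2 are red in most rows and that of Chinese Erhualian 3 is blue, with the third NDUFS3 probe set, COX7A1 and ATP5S among the rows that differ.

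The likeness of the members to each other was described by the correlation of each probe set, over the 6 arrays, with the median deviation of the members from other genes. The points share the arrays and their scaling, so no test was made. The median r was 0.922, and 51 of 72 probe sets (70.8%) had r above 0.8, against 9.08% of the 19124 other tested probe sets. NDUFB2 (r = 0.991), ATP5G1 (r = 0.990) and ATP5I (r = 0.989) lay closest to the rest. Below 0 were 7 probe sets, namely the dimmer ones of SDHB, ATP5S, COX7C and NDUFA1, the third of NDUFS3, COX7A1 and ATP5J.

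The size of the differences between sows varied from gene to gene. The highest signal over the lowest was 1.91 as a median over the 72 probe sets. It exceeded 2.5 in 13 probe sets and lay under 1.4 in 7. The SD of log2 signal over the 6 sows had a median of 0.36, against 0.31 over all tested probe sets.

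In complex I, 28 of 37 probe sets had their 2 highest signals in Large White 1 and Chinese Erhualian 2, and the median deviations were 0.43, 0.02 and -0.04 in the Large White sows and -0.15, 0.43 and -0.44 in the Chinese Erhualian sows. The core subunits that carry the flavin and the iron-sulfur clusters, or hold them in the matrix arm, gave 9 probe sets with median deviations of 0.43, 0.02, -0.02, -0.24, 0.57 and -0.38. NDUFV1, which binds NADH, had signals of 1527, 1255 and 1244 in the Large White sows and of 1025, 1547 and 1064 in the Chinese Erhualian sows. NDUFS7, which carries the last iron-sulfur cluster before ubiquinone, had 3392, 2164 and 1728 against 1417, 2907 and 1247. The breeds overlapped in both genes, and the high and low sows of each breed lay further apart than the breed means. NDUFS1, the large iron-sulfur subunit, had 1481, 1151 and 1201 against 1020, 1884 and 1203. NDUFV2, another iron-sulfur subunit, had 3183, 2317 and 2268 against 1761, 3259 and 1798 on its brightest probe set. Its other probe sets had a like order, with Chinese Erhualian 2 and Large White 1 on top in each.

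The largest spread between sows among genes with 1 probe set was that of NDUFB11, an accessory subunit of the membrane arm. Its signal was 6362, 2228 and 1821 in the Large White sows and 1496, 7376 and 1308 in the Chinese Erhualian sows, 5.64-fold between the highest and the lowest sow. The other 4 sows lay between 1308 and 2228, and the 2 high sows stood well clear of them. NDUFB1, of the same arm, had 4972, 2866 and 2396 against 1661, 4269 and 1925, and NDUFB2 had 3708, 2214 and 1948 against 1734, 3187 and 1270. The 11 NDUFB probe sets (NDUFB1 to NDUFB5 and NDUFB7 to NDUFB11) had their lowest signal in Chinese Erhualian 3 in 10 cases, NDUFB1 being the exception with its lowest in Chinese Erhualian 1. The 12 NDUFA probe sets (NDUFA1 to NDUFA3, NDUFA5 and NDUFA7 to NDUFA13) had SDs over the sows of 0.23 to 0.57 on the log2 scale, and 10 of them had Large White 1 and Chinese Erhualian 2 on top.

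The 3 probe sets of NDUFS3, a core subunit of the matrix arm, did not tell the same story. The brightest read 3018, 2615 and 1678 against 1659, 3425 and 1303, and the second 751, 600 and 510 against 469, 849 and 409. The third read 33.6, 57.7 and 175 against 1020, 45.4 and 104, which was 30.3-fold between sows and highest in Chinese Erhualian 1. It was high in the sow whose epithelial and oviduct markers were high, and second in Large White 3, where EPCAM, an epithelial adhesion protein, read 1653 and OVGP1, an oviduct glycoprotein, 2382 (7761 and 11904 in Chinese Erhualian 1). The part of those cells in this probe set was not tested. Without Chinese Erhualian 1 its breed difference on the log2 scale went from 1.28 (SE 1.21) to -0.02 (SE 0.74). It was the 1 gene of 9 with several probe sets whose breed differences lay over 0.5 apart.

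Complex II is also the succinate dehydrogenase of the Krebs cycle. Its flavoprotein SDHA had signals of 3096, 2180 and 2052 in the Large White sows and of 1305, 3342 and 1779 in the Chinese Erhualian sows, and its second probe set had 1590, 1168 and 1271 against 716, 1716 and 1073. Both were highest in Chinese Erhualian 2 and lowest in Chinese Erhualian 1. SDHC, a membrane anchor, had 2843, 1847 and 1627 against 1786, 3650 and 1496. SDHD, the other anchor, stayed within 1.23-fold, with 3701, 3638 and 3238 against 3434, 3991 and 3507. SDHB, the iron-sulfur subunit, had 3373, 3004 and 2484 against 2503, 3555 and 2093 on its brighter probe set and 446, 506 and 737 against 787, 602 and 722 on its dimmer one. The 2 SDHB probe sets thus put the sows in different orders, with Large White 1 second highest on one and lowest on the other.

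Complex III was measured by 2 genes, and both followed the general order with a wide spread. UQCR10, a small subunit, had 5213, 2954 and 3128 against 2254, 6099 and 2112. UQCRB, the ubiquinone-binding protein, had 3511, 2532 and 2709 against 1786, 3145 and 1594. CYCS, the soluble carrier between complexes III and IV, had 1670, 1108 and 977 against 1004, 1644 and 886, again with 1 sow of each breed on top.

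**Figure D2:**
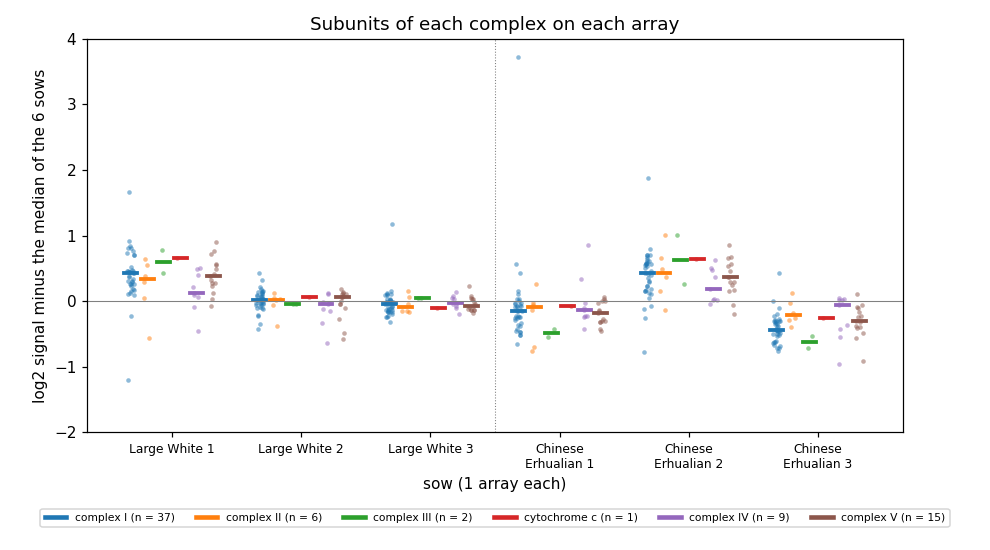
Deviation of each probe set (points) and its median per complex (bars) on the 6 arrays, in log2 units from the probe set's own median over the sows, with ATP5S left out. The bars of complex I lie at 0.43 in both Large White 1 and Chinese Erhualian 2 and at -0.44 in Chinese Erhualian 3, while those of complex IV stay between -0.13 and 0.19.

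The median deviations of complex IV spanned the least of the complexes, with 0.12, -0.05, -0.02, -0.13, 0.19 and -0.05. Its single probe sets varied about as much as the rest, with a median SD over the sows of 0.34 on the log2 scale against 0.36 over all members. COX6C, a nuclear subunit of this enzyme, had the smallest SD of the members (0.05 on the log2 scale), with signals of 7032, 6484 and 6734 against 6464, 6686 and 6346. The brighter probe set of COX7C stayed within 1.27-fold, with 6864, 5805 and 6144 against 5399, 6473 and 6466, and COX8H, the heart isoform of subunit VIII, had 163, 155 and 148 against 146, 177 and 157. Other subunits of the same enzyme did not stay level. COX5B had 9258, 7057 and 6061 against 4876, 8470 and 4464, and COX6A1, the isoform of subunit VIa found in most tissues, had 9845, 8201 and 6549 against 6832, 10376 and 5806. NDUFA4 had 4703, 3642 and 4465 against 3462, 5726 and 2994.

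The 2 isoforms of subunit VIIa ran apart. COX7A2, the isoform of most tissues, had signals of 3800, 2605 and 2782 in the Large White sows and of 2280, 4160 and 1381 in the Chinese Erhualian sows. COX7A1, the isoform of heart and muscle, had 950, 644 and 992 against 1827, 1023 and 1023, with no overlap between breeds and its highest signal in Chinese Erhualian 1. Markers of striated muscle (5 probe sets of 5 of 12 genes) summed to 423, 386 and 345 in the Large White sows and to 1161, 552 and 344 in the Chinese Erhualian sows. The peak in Chinese Erhualian 1 rested on TNNC2, a troponin, with 880 there against 92.2 to 210, and without it the other 4 probe sets summed to 331, 233 and 218 in the Large White sows and to 281, 342 and 239 in the Chinese Erhualian sows. Markers of smooth muscle and pericytes (15 probe sets of 10 of 14 genes) summed to 18280, 24840 and 24250 against 22490, 22380 and 19420, with ACTA2 the brightest (8013 to 10610). The list did not move as a whole, since 4 of its 15 probe sets were highest and 6 lowest in Chinese Erhualian 1. CNN1 (3979 against 472 to 1826) and the brighter DES probe set (853 against 119 to 402) were highest there. The part of muscle cells and pericytes in the COX7A1 signal was not tested. The difference between the breeds was 0.55 on the log2 scale (SE 0.31, limma adjusted p = 0.993, exact permutation p = 0.1, 2-sided, the smallest that 3 against 3 allows) and 0.27 (SE 0.27) without Chinese Erhualian 1.

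In complex V, 13 of 15 probe sets had Large White 1 and Chinese Erhualian 2 on top, and the median deviations were 0.39, 0.07, -0.07, -0.18, 0.37 and -0.31. The catalytic head was represented by ATP5A1 (subunit alpha) with 8815, 7692 and 6613 against 5803, 8865 and 6841, and by ATP5B (subunit beta) with 7915, 5013 and 4286 against 4121, 7480 and 4346. ATP5D, subunit delta, had 3272, 2433 and 2028 against 1812, 2466 and 1687. ATP5E, the small subunit epsilon of the same central stalk, stayed within 1.26-fold, with 7722, 7339 and 7493 against 7552, 8442 and 6719. ATP5L, subunit g of the membrane part, had 7866, 6182 and 5621 against 4376, 7208 and 4190 on its brightest probe set.

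The c ring of the ATP synthase is made of copies of 1 small protein that 3 genes encode, with different import signals. ATP5G1 differed 3.52-fold between sows, with 4605, 2798 and 2171 against 1986, 4451 and 1309. ATP5G3 differed 1.73-fold, with 9460, 7941 and 6549 against 5962, 9955 and 5769. ATP5G2 differed 1.62-fold, with 4841, 4282 and 3768 against 4150, 3827 and 2992, and here Chinese Erhualian 2 did not stand high. Among the 3 genes, ATP5G1 had the largest SD over the sows (0.71 on the log2 scale, against 0.34 for ATP5G3 and 0.23 for ATP5G2).

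**Figure D3:**
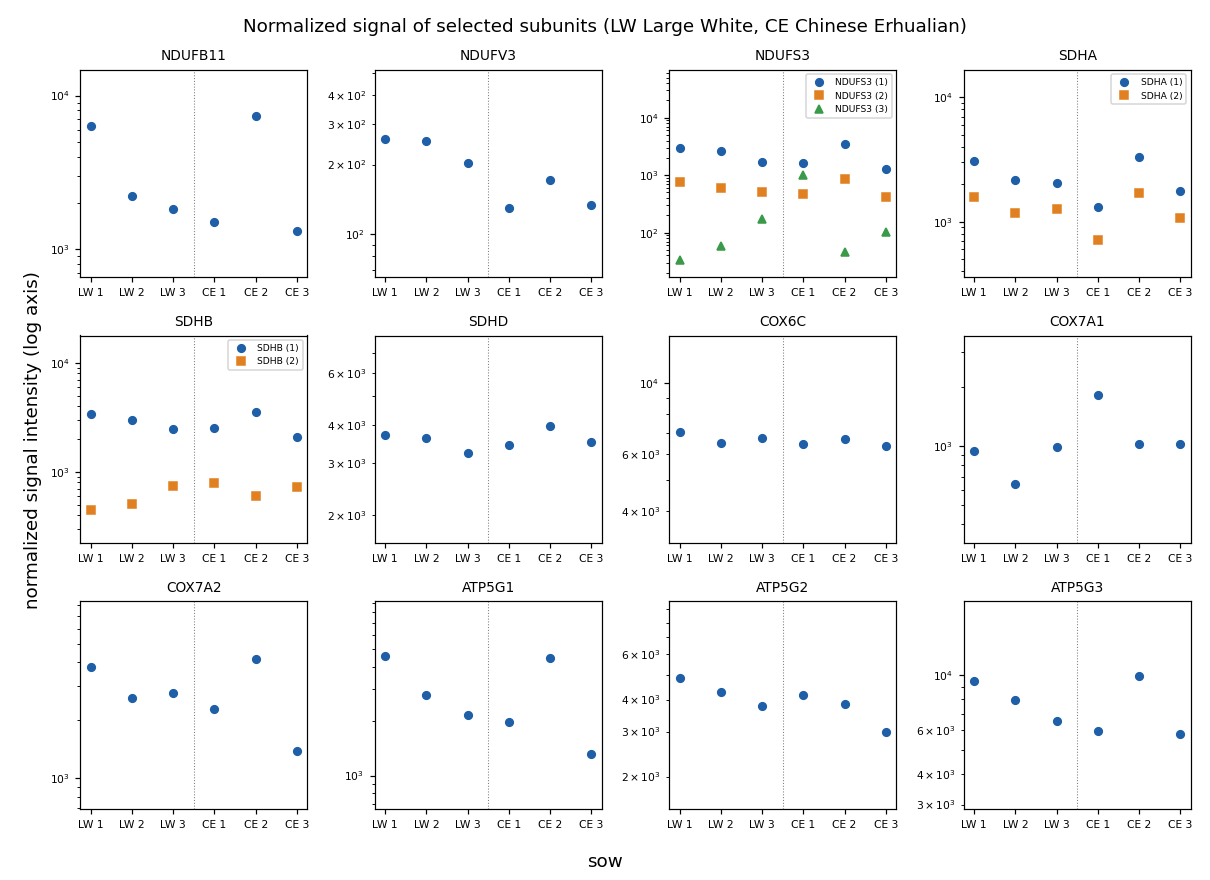
Normalized signal intensity (log axes, 1 panel per gene) of 12 genes in the 3 Large White (LW) and 3 Chinese Erhualian (CE) sows, 1 point per array and probe set. NDUFB11, COX7A2 and ATP5G1 stand high in LW 1 and CE 2, SDHD and COX6C are nearly level, and the third NDUFS3 probe set (triangles) reaches 1020 in CE 1.

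In 17 probe sets of 16 genes the 2 highest signals did not lie in Large White 1 and Chinese Erhualian 2. These were NDUFV3, NDUFA5, NDUFB9, NDUFB10, NDUFC2, NDUFS6, COX6C, COX7A1, ATP5G2, ATP5J, both probe sets of ATP5S, the brighter probe set of NDUFB3, the dimmer ones of NDUFA1, SDHB and COX7C, and the third of NDUFS3. NDUFB9, an accessory subunit of the membrane arm, had 4334, 4493 and 3537 against 2702, 4237 and 2507, and NDUFS6, an accessory subunit that binds zinc, had 816, 773 and 634 against 530, 735 and 520. Both were lowest in Chinese Erhualian 1 and 3, with the other 4 sows above them. ATP5J, coupling factor 6 of the stalk, had 1399, 1536 and 1549 against 1072, 1276 and 1575 and was the 1 member with its highest signal in Chinese Erhualian 3 (16.1% of all tested probe sets). It was chosen here after its values were seen.

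Between the breeds, 0 of the 72 probe sets passed an adjusted p of 0.05 in limma, where 4 of 19196 tested probe sets (0.0208%) did. The smallest adjusted p of a member was 0.993. The methods' t-test also gave 0 after adjustment. At an unadjusted limma p of at most 0.05, 1 member was lower in the Chinese Erhualian sows and 0 were higher, against 2.30% and 1.56% of all tested probe sets (3.86% in both directions). That member was NDUFV3, a small accessory subunit at the NADH-binding end of complex I. Its signals were 258, 252 and 204 in the Large White sows (238 ± 29.6, mean ± SD, n = 3) and 130, 172 and 133 in the Chinese Erhualian sows (145 ± 23.2, n = 3). The log2 difference was -0.72 (SE 0.19, 95% interval -1.17 to -0.26), with limma p = 0.00836, adjusted p = 0.993 and exact permutation p = 0.1, the smallest that 3 against 3 allows. It was -0.64 (SE 0.22) without Chinese Erhualian 1. The highest Chinese Erhualian signal of NDUFV3 lay below the lowest Large White signal.

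The breeds did not overlap in 3 of 72 probe sets, against 9.10% of all tested ones. In 2 the Chinese Erhualian sows were higher (3.98% of all tested) and in 1 lower (5.12% of all tested). Beside NDUFV3 and COX7A1 this was the brighter probe set of ATP5S, with 325, 301 and 289 against 378, 387 and 341 (log2 difference 0.27, exact permutation p = 0.1). The dimmer ATP5S probe set had 121, 135 and 208 against 283, 185 and 228, with a log2 difference of 0.60 (SE 0.27, limma p = 0.0649, adjusted p = 0.993, exact permutation p = 0.2) and of 0.45 (SE 0.28) without Chinese Erhualian 1. Both ATP5S probe sets were thus higher on average in the Chinese Erhualian sows.

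The log2 difference, Chinese Erhualian minus Large White, was below 0 in 55 of 72 members, against 49.7% of all tested probe sets. Its median was -0.17 over the members and 0.00 over all tested probe sets. By complex the median was -0.19 for I, -0.05 for II, -0.36 for III, -0.05 for IV and -0.15 for V, and the value of CYCS was -0.10. The 11 NDUFB probe sets were all below 0 (median -0.20), as were 11 of the 12 NDUFA probe sets (median -0.19). UQCRB (-0.48, SE 0.30), NDUFB1 (-0.44, SE 0.44), NDUFS7 (-0.43, SE 0.40), COX5B (-0.37, SE 0.29) and ATP5D (-0.37, SE 0.25) were among the lower values, none of which passed the test. Without Chinese Erhualian 1, NDUFB1 was at -0.18 (SE 0.46), and NDUFB11 (0.07) and both probe sets of NDUFB3 (0.03 and 0.11) lay above 0. The median over the members turned to 0.03 without Chinese Erhualian 3 and was -0.36 without Chinese Erhualian 2, -0.02 without Large White 1 and -0.06 without Chinese Erhualian 1. The median of complex IV turned to 0.01 under quantile normalization. The hybridization spike-ins, added in a fixed amount, had median deviations of -0.32, -0.27 and -0.09 on the Large White arrays and of 0.11, 0.11 and 0.26 on the Chinese Erhualian arrays, and their part in the breed difference was not tested.

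The breed difference exceeded the SD within breeds in 14 of 72 members (19.4%) and in 27.0% of all tested probe sets. The SD within breeds had a median of 0.37 over the members on the log2 scale and 0.30 over all tested probe sets. The 95% interval of a member's difference reached a median of 0.66 to each side, a ratio of 1.58, against 0.58 over all tested probe sets. It lay within a 2-fold change in either direction for 46 of 72 members and for 12644 of the 19196 tested probe sets. A p above the threshold therefore does not show that the breeds were equal.

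**Figure D4:**
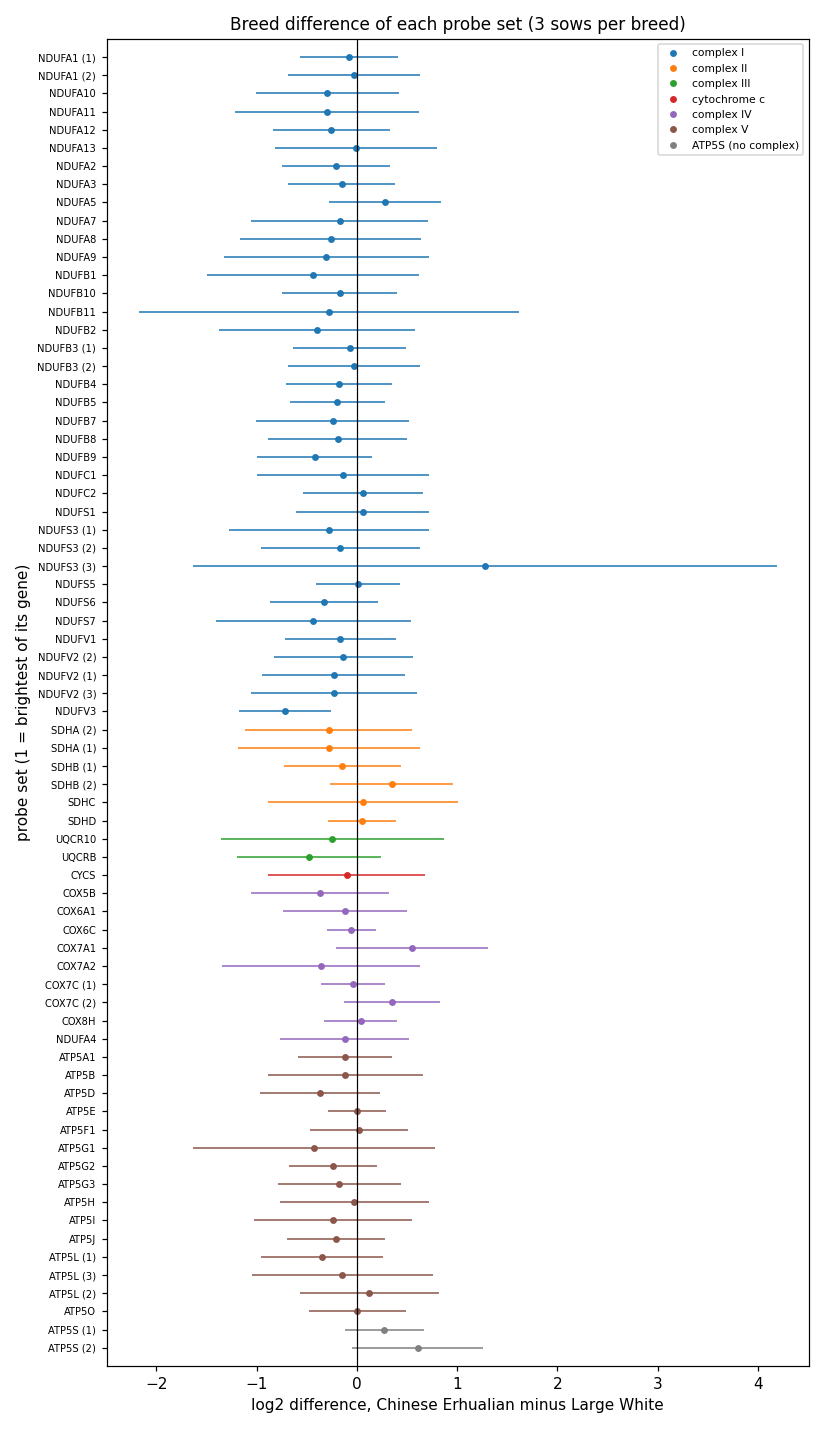
Log2 difference, Chinese Erhualian minus Large White, of each of the 72 probe sets (points, coloured by complex) with its 95% interval from limma (3 sows per breed). The interval of NDUFV3, from -1.17 to -0.26, is the only one without 0, and that of the third NDUFS3 probe set is the widest.

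The breed counts turned on single sows. Without Chinese Erhualian 2, 8 members had a limma p of at most 0.05 (7 lower, 1 higher, against 6.38% of all tested probe sets in both directions together). In the same setting 36 of 72 did not overlap (33 lower, 3 higher, against 25.7% of all tested in both directions together). The 7 lower ones at that p were NDUFV3, NDUFB9, UQCRB, UQCR10, COX5B, COX7A2 and the brightest probe set of ATP5L, with a smallest adjusted p of 0.708 in limma. Chinese Erhualian 2 was picked out above as a high sow of these members, so leaving it out lowers the Chinese Erhualian side by that choice. Without Large White 3, 3 members had a limma p of at most 0.05 (NDUFV3, and the dimmer probe sets of ATP5S and COX7C) and 10 did not overlap, against 4.78% and 21.3% of all tested probe sets. The dimmer COX7C probe set passed the signal limit mainly through the Chinese Erhualian sows, and the Large White signals left were both under 50, so that its call is not free of the limit.

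Other mitochondrial genes were read on the same arrays. The mitochondrial ribosome, which translates the mitochondrially encoded subunits, gave 74 probe sets of 57 genes with median deviations of 0.38, 0.00, -0.06, -0.09, 0.22 and -0.30. Large White 1 and Chinese Erhualian 2 were on top in 40 of the 74 (15.6% of all tested probe sets). The lowest signal lay in Chinese Erhualian 3 in 46 (16.6% of all tested). Of this list 1 probe set passed an unadjusted limma p of 0.05, against 3.86% of all tested probe sets in both directions. It was the dimmer one of MRPL33, a large subunit protein, with 39.7, 87.4 and 63.6 against 100, 188 and 141 (log2 difference 1.20, SE 0.36, limma adjusted p = 0.993). The brighter MRPL33 probe set had 1719, 859 and 1097 against 675, 1360 and 668 (-0.47, SE 0.39), so the direction was not shared. MRPS36 (0.67, SE 0.28) and MRPL14 (-0.45, SE 0.22) came next by p. The genes of this list were taken by symbol alone, and whether each protein belongs to the ribosome was not checked.

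The Krebs cycle and pyruvate dehydrogenase, which supply NADH and succinate, gave 18 probe sets of 16 genes with median deviations of 0.19, 0.02, -0.07, -0.26, 0.38 and -0.29. Of these 0 passed an unadjusted limma p of 0.05, and the smallest p values were those of IDH3A (0.29, SE 0.18), DLD (0.37, SE 0.28) and SUCLG2 (0.25, SE 0.21) as log2 differences. Assembly factors of the respiratory chain (20 probe sets of 13 genes) had 0.19, -0.06, -0.05, 0.00, 0.23 and -0.26, with 0 passing. Their smallest p values belonged to FOXRED1 (-0.40, SE 0.24), NDUFAF2 (0.35, SE 0.27) and SDHAF2 (-0.36, SE 0.27). The dimmer SDHAF2 probe set went the other way (0.17, SE 0.15). Carriers and pores (19 probe sets of 12 genes) had 0.05, 0.10, -0.10, -0.38, 0.28 and -0.04, with 0 passing. On their probe sets of smallest p, VDAC2, a pore of the outer membrane, had a log2 difference of -0.61 (SE 0.32), SLC25A3, the phosphate carrier, 0.33 (SE 0.22), and SLC25A4, an ADP and ATP carrier, -0.40 (SE 0.29). The brighter SLC25A3 probe set had -0.02 (SE 0.18).

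Regulators of mitochondrial genes did not follow the order of the subunits, and their median deviations were -0.12, -0.10, -0.05, -0.04, 0.10 and 0.09 over 17 probe sets of 8 genes. Large White 1 and Chinese Erhualian 2 were on top in 2 of the 17 (15.6% of all tested probe sets). At an unadjusted limma p of 0.05, 4 probe sets were higher in the Chinese Erhualian sows (1.56% of all tested) and 1 was lower (2.30% of all tested), and 0 passed after adjustment. The 4 higher ones were 2 of TFAM, which packs and transcribes mitochondrial DNA, and 2 of HIF1A, the oxygen-regulated factor. The brightest TFAM probe set had 396, 392 and 572 against 628, 627 and 706 (log2 difference 0.55, SE 0.22, limma adjusted p = 0.993), and its other 3 probe sets had differences of 0.32 to 0.58. The 2 HIF1A probe sets had differences of 0.55 and 0.65, while the brightest HIF1A probe set had -0.10 (SE 0.18). The lower one was TFB1M, which methylates the small ribosomal RNA of mitochondria, with 451, 376 and 422 against 279, 320 and 279 (log2 difference -0.51, SE 0.17, limma adjusted p = 0.993).

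Steroid synthesis in the mitochondrion had the same high sows with far larger differences. Its 11 probe sets of 6 genes had median deviations of 2.11, -0.11 and 0.05 in the Large White sows and of -1.44, 2.08 and -0.25 in the Chinese Erhualian sows, with Large White 1 and Chinese Erhualian 2 on top in 10 of 11. STAR, which brings cholesterol to the inner membrane, had 12051, 1304 and 1516 against 27.0, 12624 and 982 on its brighter probe set. CYP11A1, which cleaves the cholesterol side chain there, had 12210, 3982 and 2776 against 63.9, 13520 and 1004. HSD3B1, which makes progesterone, had 10505, 5895 and 3704 against 90.6, 10898 and 3536 on its brighter probe set. The lowest sow differed between the lists. It was Chinese Erhualian 1 in 10 of the 11 steroid probe sets and Chinese Erhualian 3 in 47 of the 72 respiratory chain and ATP synthase probe sets. The breed differences of STAR (-2.05, SE 2.20), CYP11A1 (-2.43, SE 1.84) and HSD3B1 (-2.01, SE 1.69) on the log2 scale did not pass the test (0 of 11 at an unadjusted limma p of 0.05). Chinese Erhualian 1 had the lowest signal of each, and these differences are given only with that sow. Theca cell markers, which share 5 of their 11 probe sets with this list, summed to 52290, 15180 and 12030 in the Large White sows and to 997, 61340 and 8298 in the Chinese Erhualian sows, and 8 of the 11 had Large White 1 and Chinese Erhualian 2 on top. The 6 theca probe sets outside the steroid list (INSL3, LHCGR, CYP17A1 and NR5A1) summed to 2670, 2550 and 2830 against 647, 7170 and 1770, high in Chinese Erhualian 2 but not in Large White 1, and 3 of the 6 had those 2 sows on top. The part of these cells in the order of the sows was not tested.

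**Figure D5:**
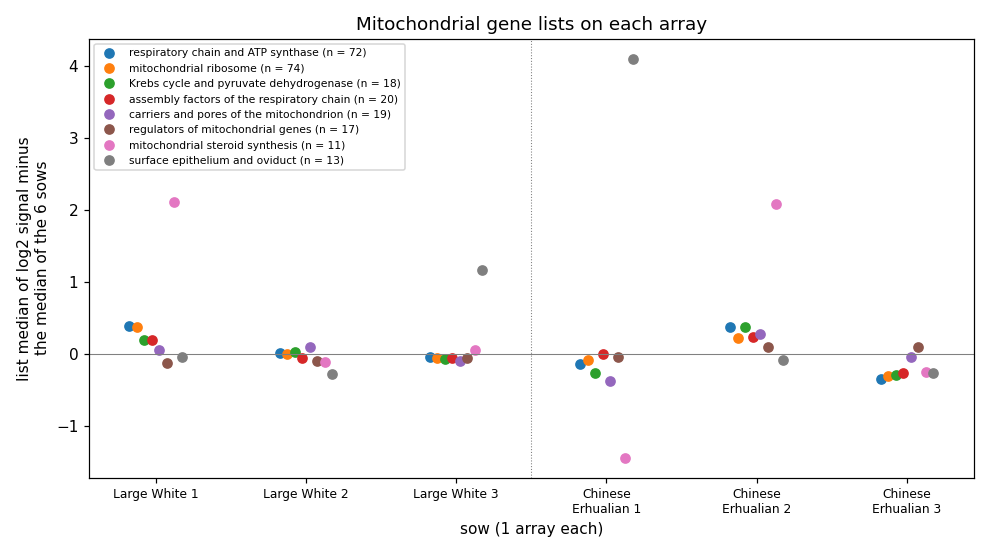
Median deviation (log2 signal minus the probe set's own median over the 6 sows) of 8 gene lists on each array, with n the number of probe sets. The respiratory chain and ATP synthase (0.39 and 0.37), the mitochondrial ribosome (0.38 and 0.22) and steroid synthesis (2.11 and 2.08) are high in Large White 1 and Chinese Erhualian 2, and the epithelial and oviduct markers in Chinese Erhualian 1 (4.10).

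Measures of RNA quality on the arrays partly moved with the sow order. The ratio of the 3 prime to the 5 prime probe set of GAPDH, a glycolytic enzyme used as a control, was 1.21, 1.39 and 1.60 on the Large White arrays and 1.85, 1.36 and 1.73 on the Chinese Erhualian arrays, lowest on the 2 arrays where the respiratory chain stood highest. The same ratio for actin was 2.13, 1.50 and 1.72 against 2.10, 2.66 and 1.96, highest on those 2 arrays. That of the elongation factor EF1A was 0.98 to 1.08 on the 6 arrays. For the 12 probe sets of poly-A spike-ins, the median deviations were -0.17, -0.02 and 0.18 against -0.07, 0.03 and 0.05. Their part in the order of the sows was not tested.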

How the data were processed

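The deposited values are 1 signal intensity per probe set and array on the porcine Affymetrix array, made by the authors with MAS5 (version 2.3.1 in the submitters' processing notes), scaled to 500 per array and normalized with the invariant set method of dChip. Here a floor of 1 and log2 were applied. Of 24123 probe sets, 188 controls were left out, and the 19196 that exceeded 50 on 3 or more arrays entered the test. Breed was fitted in limma 3.58.1 (R 4.3.3) with trend in eBayes, 2-sided, with Benjamini-Hochberg adjustment over these. Python 3.11.15 and matplotlib 3.10.9 drew the figures. The limma fit was also run on simulated data with independent noise per probe set and array. Those data lack the differences that members share between sows, so that run does not speak to them. The number of arrays limits the precision. Replicates are separate sows.

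Symbols came from the array's probe table, which gives 1 symbol for 10099, several for 198 and none for 13826 of the probe sets. Probe sets with several symbols were left out, 2 of them with a matching symbol. Genes named are members with a limma p of at most 0.05, the 3 smallest p per complex, isoforms, SDH and core subunits, the 8 largest SDs, genes whose probe sets disagree, and the 3 genes of smallest p per further list; NDUFA5, NDUFB10, NDUFC2, ATP5E, ATP5J, ATP5S, COX8H, the marker genes and others were chosen after their values were seen. Members and lists were chosen with earlier results of these data known. The numbers of the sows did not pair them. Alternatives were other normalizations, offsets, filters, array weights, a constant prior variance, the replicate number as a block, the methods' t-test and each sow left out. Adding the sow medians under other scalings, and the sow pattern without Chinese Erhualian 1, came after the data were seen. No sequences are shown, since none of the tables used here held them.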

Additional observations from a re-analysis of the deposited data

How the results depend on the processing

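Over all tested probe sets, 4 had an adjusted limma p under 0.05, and this became 11 with array weights (4 higher, 7 lower), 0 with the replicate number as a block (719 at an unadjusted p), 0 with the methods' t-test (846 unadjusted) and 2 to 4 when 1 sow was left out. The paper's own t-test counted more transcripts at an unadjusted p of at most 0.05 than the t-test run here. That count was thus not reproduced, and the reason was not tested. No member passed the adjusted threshold in any of the 15 alternatives. The 1 member at an unadjusted p became 3 with array weights (NDUFV3 and NDUFB9 lower, the dimmer ATP5S higher, 6.79% of all tested probe sets), 2 with the methods' t-test (NDUFV3 lower, the brighter ATP5S higher, 4.41% of all tested) and 1 to 8 with 1 sow left out. The 3 members without overlap became 3 to 36 with 1 sow left out, 36 without Chinese Erhualian 2 and 10 without Large White 3. The block left the count of members at 1. Same-numbered sows of the breeds had deviations that correlated at -0.17, -0.14 and 0.27, so the numbers were not taken as pairs. With 1 sow left out, the median log2 difference ranged from -0.36 to 0.03 over the members, -0.41 to 0.03 for complex I, -0.34 to 0.06 for II, -0.76 to -0.13 for III, -0.37 to 0.13 for CYCS, -0.09 to 0.05 for IV and -0.31 to 0.00 for V. Each value lay within 1 SD between sows of a breed (0.13 for IV to 0.55 for III, 0.31 for all members) of the value from 6 sows. Leaving out 1 of 3 sows can hardly move a value further than that, so this does not show that the values were stable. Among the 38 probe sets named by the rule, the sign changed in 12 without Chinese Erhualian 3, 6 without Chinese Erhualian 1 and 5 without Large White 1. COX6C went from -0.05 to 0.03 under quantile normalization. The causes were not tested. With 3 sows per breed, 1 farm per breed and no array repeated, precision was limited, and it differed between members.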
